A study of Mus musculus with 24 samples.

Results

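The tripartite motif (TRIM) family of ubiquitin ligases was followed in ID8 mouse ovarian cancer cells with and without interferon beta (IFN beta). Members were the protein-coding genes named Trim, digits and at most 1 letter, with at least 48 unique molecular identifiers (UMIs, each standing for a captured mRNA molecule) summed over 24 libraries. They were 34 of 46 such genes, among the 24614 genes in the table. The member nearest above the limit was Trim68, with 50 UMIs, and the gene nearest below it was Trim5, with 43 UMIs. All cells, the controls included, carried knockouts of Trp53, which encodes the tumour suppressor p53, and of Brca2, which acts in DNA repair. The 4 lines were untransfected cells (WT), cells given an empty CRISPR vector (EV), and 1CF10 and 2CD7, which are each a clone with a CRISPR knockout of Ifnar1, a chain of the type I interferon receptor. Each line was left untreated or given recombinant mouse IFN beta at 10000 IU/ml for 3 h. Each of the 8 groups has 3 libraries, which the labels call technical replicates of a shared date. All p-values therefore measure technical spread, and the effect of the knockout cannot be told apart from other differences between clones.

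TRIM proteins carry a RING finger with ubiquitin ligase activity, B-box zinc fingers and a coiled coil, followed by a C-terminal part that selects the target. In many of them this part is a SPRY domain, as in the primate restriction factors that bind retroviral capsids, in TRIM21, which binds antibody in the cytosol, and in TRIM25, which acts in signalling by the RNA sensor RIG-I. Type I interferon binds its receptor and sets off a transcription factor complex, which binds repeats of GAAA in promoters of interferon-stimulated genes.

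Libraries held 1972192 to 3097331 UMIs and were primed at the poly(A) tail, so levels given as UMIs per 1000000 UMIs of the library (CPM) are not scaled by gene length. Pairs of replicates differed by a mean chi-square of 1.40 to 2.70 per gene, except that treated 1CF10 library 3 differed from libraries 1 and 2 by 4.74 and 3.67 and so stood apart. Ifnar1 was counted with 11 to 44 UMIs in every library, clones included. A tag at the 3′ end can come from an edited transcript, so this count does not check the knockout. Of the mesothelial and surface epithelial markers 6 of 8 passed the filter on low counts, and their summed level was 2156 to 3864 CPM. No leukocyte or endothelial marker passed it, and these lists summed to 0.760 to 4.54 and 0 to 1.90 CPM in the libraries.

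IFN beta raised the same 10 members in WT and in EV and lowered none (edgeR quasi-likelihood test, Benjamini-Hochberg adjusted p below 0.05 over 11698 tested genes). Of the 34 members 32 were tested. Among all tested genes, 5.01% rose in WT and 3.99% rose in EV, and 1.84% and 1.1% fell. The 10 members were 5 neighbours on chromosome 7 (Trim12a, Trim12c, Trim30a, Trim30d and Trim34a), the SPRY-domain members Trim21, Trim25, Trim26 and Trim14, and Trim56. Trim12a, Trim12c, Trim14, Trim21, Trim30a, Trim30d, Trim34a and Trim6 reached the filter level of 3.98 CPM in 3 or more libraries only through the treated controls, so these 8 were tested because they were high there. Trim25, Trim26 and Trim56 were above that level in all 24 libraries.

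**Figure D1:**
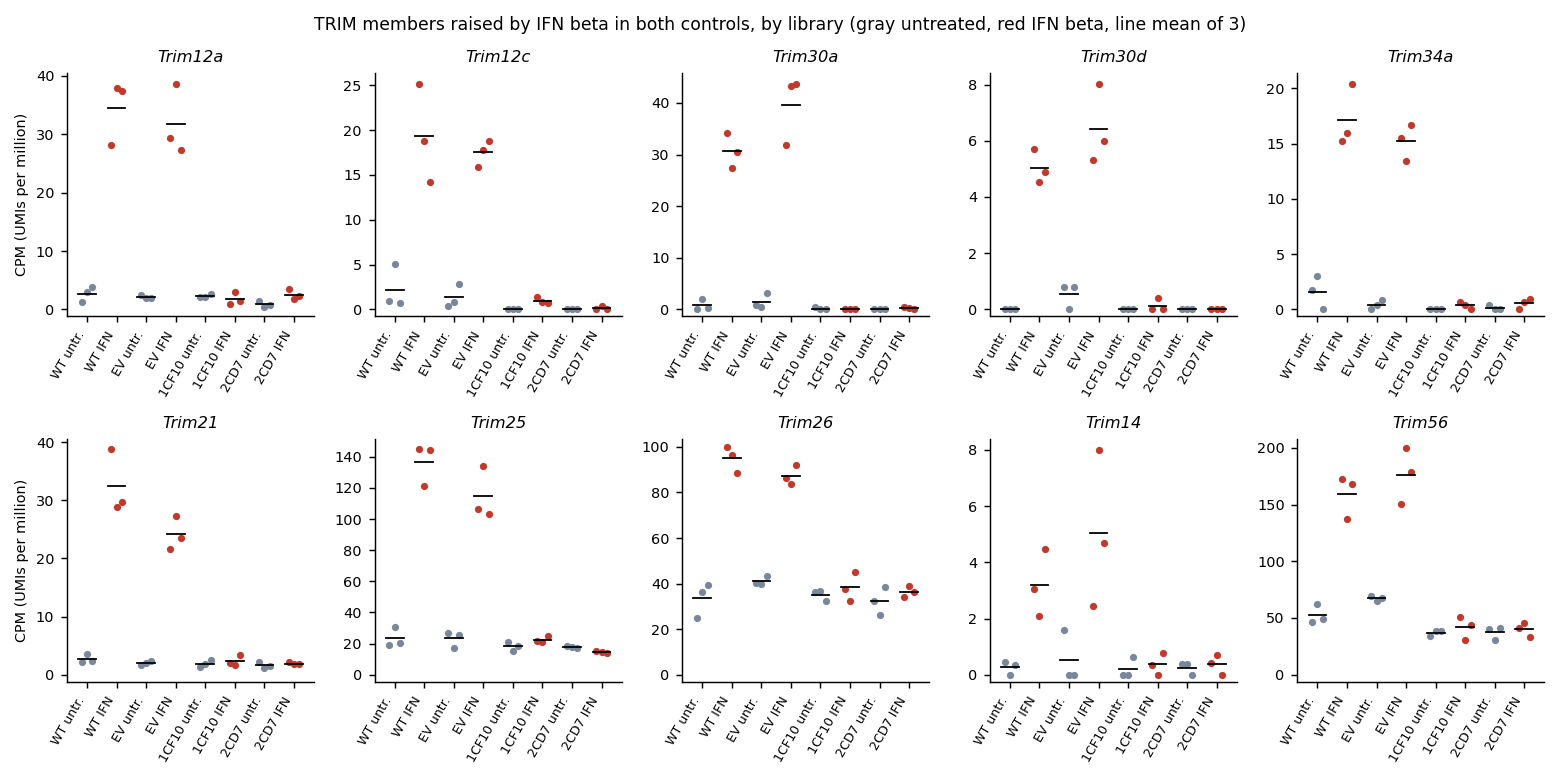
CPM (vertical axes, linear) of the 10 members raised in both controls, for 8 groups of 3 libraries (gray untreated, red IFN beta, black line the mean). In each panel all 6 treated control libraries lie above the untreated libraries and above the treated clones.

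The neighbours on chromosome 7 lie in a TRIM gene cluster in which relatives of the primate restriction factor TRIM5 are expanded in rodents. On GRCm38 with GENCODE M21 annotation this stretch runs from 104218793 to 104507849 (289.1 kb) and holds 10 protein-coding genes, all of them TRIM genes. Trim30a, reported as a brake on Toll-like receptor signalling, had 0, 4 and 1 UMIs in the untreated WT libraries and 90, 79 and 75 after IFN beta. In EV it had 2, 1 and 8 UMIs untreated and 78, 119 and 102 treated. Treated libraries thus lay far above untreated ones, with a log2 fold change of 5.40 ± 0.40 (SE) in WT (edgeR adjusted p = 1.9e-15, n = 3 and 3) and 4.74 ± 0.33 in EV (edgeR adjusted p = 2.58e-16). Most untreated UMIs of Trim30a came from WT library 2 and EV library 3, and without these the ratio of treated to untreated was 158 (95% counting interval 28.02 to 6250) in WT and 65.5 (22.2 to 320) in EV.

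Trim12a had 3, 6 and 11 UMIs in untreated WT and 74, 109 and 92 in treated WT. In EV its counts went from 6, 5 and 5 to 72, 106 and 64 UMIs. These are log2 fold changes of 3.64 ± 0.27 and 3.90 ± 0.28 (edgeR adjusted p = 1.05e-17 and 1.13e-17). Its neighbour Trim12c went from 2, 10 and 2 to 66, 54 and 35 UMIs in WT, and from 1, 2 and 7 to 39, 49 and 44 in EV. The groups did not overlap in either line, and the log2 fold changes were 3.31 ± 0.38 and 3.69 ± 0.41 (edgeR adjusted p = 2.54e-09 and 1.88e-09). Without untreated WT library 2 the log2 fold change of Trim12c was 4.61, and without untreated EV library 3 its ratio was 28.9 (counting interval 9.69 to 142).

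Trim34a counts were 4, 6 and 0 UMIs in untreated WT and 40, 46 and 50 in treated WT, a log2 fold change of 3.597 ± 0.402 (edgeR adjusted p = 1.91e-10). In EV they were 0, 1 and 2 untreated and 38, 37 and 39 treated, a ratio of 37.4 with a 95% counting interval of 12.5 to 184. For Trim34a 1 untreated library moved these values: the log2 fold change in WT was 4.43 without library 2 and 2.88 without library 3, and the ratio in EV was 24.8 without library 1 and 75.0 without library 3. Trim30d was not counted in untreated WT and had 15, 13 and 12 UMIs after IFN beta, at least 11.9-fold higher when 3 UMIs per group are taken as the floor, with a lower counting limit of 9.25. In EV it went from 2, 0 and 2 to 13, 22 and 14 UMIs (log2 fold change 3.52 ± 0.57, edgeR adjusted p = 5.94e-06). Treated and untreated libraries of both genes were apart in both controls.

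Trim6, at the upstream end of the cluster, did not pass the test. It had 7, 4 and 2 UMIs in untreated WT, and 13, 7 and 12 in treated WT, with log2 fold changes of 1.16 ± 0.54 in WT (edgeR adjusted p = 0.249) and 1.67 ± 0.63 in EV (edgeR adjusted p = 0.142). The other 4 genes of the cluster lay below the limit of 48 UMIs and were not tested. Trim5 had 1 UMI in untreated WT against 21 treated (ratio 18.8, counting interval 3.02 to 776), and 2 against 14 in EV (ratio 6.89, 1.58 to 62.4). Trim30c had none untreated and 9 treated UMIs in WT and 5 in EV; the lower counting limits of the ratio were 1.76 and 0.901, the second of which includes no change. Trim34b had 5 UMIs, all in treated WT, and Trim30b had 2, also in treated WT. Of the possible reads of 101 bases from the last 500 bases of Trim34b, 24.5% also match Trim34a, while no such read of the other cluster genes matches another gene. Only exact matches from the end of the longest coding transcript of each gene were sought. Reads from other parts or with mismatches were not covered, so sharing of reads between these genes is not excluded.

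Summed over its 10 genes, the cluster gave 9.46 ± 5.48 CPM (SD, n = 3) in untreated WT, and 115.5 ± 3.49 in treated WT. EV gave 7.29 ± 3.94 and 116.6 ± 10.2 CPM. The clones stayed low throughout, with 4.18 ± 0.56 and 4.98 ± 1.83 CPM in 1CF10 and 2.81 ± 1.98 and 4.16 ± 0.85 CPM in 2CD7. Untreated WT library 2 held 15.7 CPM and untreated EV library 3 held 11.8. The other untreated control libraries, at 4.46 to 7.16 CPM, overlapped with the clone libraries, of which the highest, treated 1CF10 library 2, held 7.07.

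**Figure D2:**
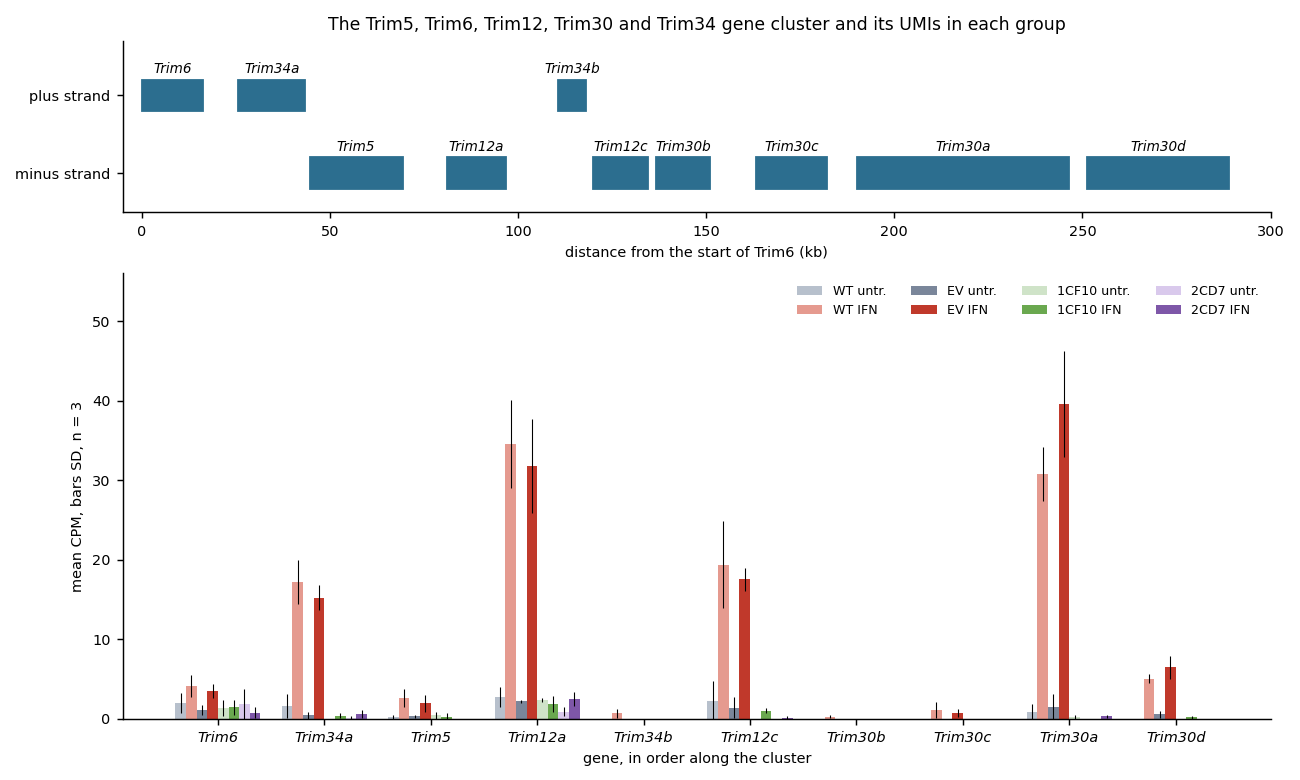
The upper panel maps the 10 genes of the chromosome 7 cluster by strand (horizontal axis in kb from the start of Trim6). The lower panel gives mean CPM ± SD of 3 libraries for each gene in 8 groups, where treated WT and EV stand above the other groups for Trim34a, Trim12a, Trim12c, Trim30a and Trim30d.

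The promoters of these genes were searched for 2 GAAA runs separated by any 2 bases, as in the repeat bound by that complex downstream of the receptor, on both strands from 250 bases before to 50 after the start (RefSeq promoters, GRCm38.p6). The motif occurred in 7 of the 9 raised members with an entry (77.8%) and in 1 of 17 other members (5.88%). Of 27025 genes with a promoter entry 3.99% held it, as did 22% of 300 tested genes outside the family that rose in both controls. The raised members were chosen by the response, so these shares are a description. Windows of 30 bases are shown in the direction of the gene because they let the paralogs be compared; capitals mark the motif, which on the opposite strand reads as runs of TTTC.
Trim12a: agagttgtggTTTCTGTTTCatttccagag
Trim12c: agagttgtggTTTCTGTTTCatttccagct
Trim5: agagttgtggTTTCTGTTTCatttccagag
Trim30a: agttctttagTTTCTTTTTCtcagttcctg
Trim30d: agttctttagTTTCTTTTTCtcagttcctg
Trim34a: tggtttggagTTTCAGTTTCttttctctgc
Trim21: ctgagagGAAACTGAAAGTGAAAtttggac
Trim26: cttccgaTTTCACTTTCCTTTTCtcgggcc

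The Trim12a window lies at chr7:104315466-104315495 on the minus strand, with its motif 10 bases after the start. The motif stood 29 bases before the start in Trim12c and 49 before in Trim5. Around the motif, Trim12a and Trim5 were identical over 90 of 90 bases, and Trim12a and Trim12c over 85 of 90. Trim30a and Trim30d matched at 109 of 110 bases, and their motifs began 36 and 41 bases before the start. The other promoter entry of Trim30a, not shown above, held the motif 2 bases after its start and matched Trim30d at 67 of 98 bases. Trim21, which lies outside the cluster on chromosome 7, and Trim26 on chromosome 17 each held 2 overlapping motifs, drawn as a single run of capitals. Promoters of Trim25 and Trim56 held no match in this window, and Trim14 had no entry. Within the cluster, promoters of Trim6, Trim30b, Trim30c and Trim34b held no match either. Trim5 lay below the limit for members and is not counted among the raised members. The match among the other members was in 1 of 5 promoters of Trim2, a gene that was not raised.

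Among SPRY-domain members outside the cluster, 4 of 13 tested rose in each control, beside 5.01% of all tested genes in WT and 3.99% in EV. Of these 4, Trim21 and Trim14 were tested only because they were high in the treated controls. Trim21, the cytosolic antibody receptor, had 5, 7 and 7 UMIs in untreated WT and 102, 83 and 73 after IFN beta. In EV it had 4, 5 and 6 untreated and 53, 75 and 55 treated. The log2 fold changes were 3.62 ± 0.26 and 3.59 ± 0.29 (edgeR adjusted p = 3.64e-18 and 5.92e-16), with no overlap between treated and untreated libraries.

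Trim25, whose product ubiquitinates RIG-I, was present before treatment in WT at 19.2, 30.9 and 20.3 CPM, and reached 145, 121 and 144 CPM after IFN beta. The EV libraries held 26.9, 17.4 and 25.6 CPM of it untreated, then 106, 134 and 103. Its log2 fold changes were 2.61 ± 0.14 and 2.34 ± 0.14 (edgeR adjusted p = 2.2e-24 and 7.85e-22). Trim26, reported to target the transcription factor IRF3, went from 25.0, 36.5 and 39.2 to 99.9, 96.7 and 88.8 CPM in WT. In EV it went from 40.1, 39.8 and 43.5 to 86.2, 83.7 and 91.9 CPM. Both genes separated fully by treatment, with Trim26 at log2 fold changes of 1.53 ± 0.13 and 1.12 ± 0.12 (edgeR adjusted p = 1.28e-15 and 5.98e-11).

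Trim14, which lacks a RING finger and binds the adaptor MAVS, was sparse. It had 1, 0 and 1 UMIs in untreated WT against 8, 6 and 11 treated, a ratio of 11.2 (counting interval 2.79 to 97.3). In EV it had 4, 0 and 0 against 6, 22 and 11 UMIs, a log2 fold change of 3.19 ± 0.66 (edgeR adjusted p = 0.000458). All 4 untreated UMIs of Trim14 came from EV library 1, and without it treated EV was at least 8.49-fold higher against the floor, with a lower counting limit of 6.58. In WT the edgeR adjusted p was 0.00599, and over the alternatives it ran from 0.00166 to 0.0613, the highest with DESeq2, which did not call it. Trim14 overlaps Nans on the opposite strand over 9852 bases. The log2 fold change of Nans was -0.04 ± 0.09 in WT and 0.08 ± 0.09 in EV (edgeR adjusted p = 0.874 and 0.808).

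Trim56, a RING ligase without a SPRY domain that has been tied to antiviral signalling, went from 46.1, 62.4 and 48.8 to 173, 137 and 168 CPM in WT. In EV it went from 69.1, 65.3 and 67.5 to 151, 199.7 and 179 CPM. The log2 fold changes were 1.66 ± 0.14 and 1.43 ± 0.13 (edgeR adjusted p = 1.04e-11 and 1.31e-10). Its treated and untreated libraries did not overlap in either control.

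The remaining 22 tested members did not pass the test in either control. Their log2 fold changes ran from -0.77 to 1.16 in WT and from -0.64 to 1.67 in EV, both highest values being those of Trim6. None of the chromatin-binding members was called: Trim24, Trim33 and Trim28, the corepressor of KRAB zinc finger proteins. Trim28 had 143, 139.9 and 123 CPM in untreated WT and 139, 142 and 119 in treated WT, and its log2 fold change was 0.03 ± 0.09 (95% interval -0.16 to 0.21). In EV it was 0.02 ± 0.09 (-0.16 to 0.20), so a shift of the size of Trim26 lies outside both intervals.

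The NHL-repeat members Trim2, Trim3 and Trim32 and the membrane-anchored Trim59 were not called either. Trim23, Trim37, Trim8, Trim45 and Trim44, and the SPRY-domain members Trim7, Trim11, Trim16, Trim27, Trim35, Trim39, Trim41, Trim47 and Trim65, completed the group. Trim44, which has a ubiquitin-type zinc finger in place of a RING, had log2 fold changes of 0.44 ± 0.16 in WT and -0.33 ± 0.15 in EV (edgeR adjusted p = 0.0948 and 0.309). By libraries alone, 11 members stood higher without overlap in each control: the 10 raised ones with Trim44 in WT and with Trim6 in EV. Among all tested genes 8.87% did so in WT and 8.8% in EV. In the other direction 7 members stood lower without overlap in WT and 5 in EV, beside 15.2% and 12.4% of all tested genes.

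In the Ifnar1 clones no member was called after IFN beta, in either direction, and 0% of all tested genes were. At an unadjusted p below 0.05, edgeR listed 2 members in each clone (Trim12c and Trim41 in 1CF10, Trim12a and Trim35 in 2CD7), DESeq2 listed 1 in each, and limma-voom 1 and 2. With edgeR 4.15% and 4.36% of all tested genes were below it, so the members' counts were near the background. Without treated 1CF10 library 3 no member was called in 1CF10 either. Trim12c had no UMI in untreated 1CF10 and 4, 2 and 2 after IFN beta, at least 2.73-fold higher against the floor, with a lower counting limit of 1.75. Trim12a went from 4, 1 and 2 to 8, 5 and 5 UMIs in 2CD7 (log2 fold change 1.40 ± 0.59, edgeR adjusted p = 0.997), and from 5, 6 and 8 to 3, 7 and 4 in 1CF10. By libraries alone 2 members stood higher without overlap in 1CF10 (Trim12c and Trim3) and none lower, beside 4.92% and 3.24% of all tested genes. In 2CD7 4 stood higher (Trim12a, Trim2, Trim33 and Trim45) and 1 lower (Trim25), beside 5.27% and 4.42%.

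Trim21 stayed at 3, 5 and 8 UMIs untreated and 6, 4 and 9 treated in 1CF10, and at 6, 3 and 4 and 5, 5 and 4 in 2CD7. Trim25 had 21.2, 15.005 and 18.7 CPM untreated and 21.8, 20.8 and 25.1 treated in 1CF10. In 2CD7 Trim25 had 18.5, 17.7 and 17.4 CPM, and 15.1, 14.9 and 14.1 after IFN beta. Trim30a had 1 UMI over the 6 libraries of 1CF10 and 2 over those of 2CD7. Each treated clone library lay below each treated control library for all 10 raised members, and no member was apart in the other direction. Over all tested genes 3.47% were apart lower and 2.5% higher. This level was not tested, and the 10 were chosen on the treated controls.

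The response averaged over the clones was compared with that averaged over the controls by a test of their log2 difference (clones minus controls). It was called lower for 5 members, beside 3.68% of all tested genes. They were Trim21 at -3.38 ± 0.44 (edgeR adjusted p = 2.59e-08), Trim12a at -3.27 ± 0.54 (edgeR adjusted p = 7.83e-06) and Trim25 at -2.47 ± 0.17 (edgeR adjusted p = 2.31e-18). Trim56 and Trim26 followed at -1.41 ± 0.15 and -1.19 ± 0.13 (edgeR adjusted p = 1.35e-08 and 3.13e-10). Trim21 and Trim12a passed the filter only through the treated controls, so the filter favoured the sign of their difference. Trim25, Trim26 and Trim56 were above the filter level in every library. Trim12c, Trim14, Trim30a, Trim30d and Trim34a were not called; each had 0 to 3 UMIs in at least 1 untreated clone group. Limma-voom called Trim14, Trim30a, Trim30d and Trim34a as well, 9 members in all, and DESeq2 called Trim30a as well, 6 in all. Trim6, which had 14 UMIs in untreated and 5 in treated 2CD7, had -2.07 ± 0.69 (edgeR adjusted p = 0.0692).

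Trim3 and Trim59 had the opposite sign in this contrast, at 0.74 ± 0.22 (edgeR adjusted p = 0.0293) and 0.40 ± 0.12 (edgeR adjusted p = 0.0436), beside 1.56% of all tested genes. Trim3, a brain-enriched NHL-repeat ligase, had 15.7, 14.7 and 14.4 CPM untreated and 12.2, 12.2 and 10.2 treated in WT. Its EV values were 12.04, 13.0 and 12.6 and then 8.98, 8.00 and 6.41 CPM. In 1CF10 they were 11.3, 10.003 and 11.9 and then 13.1, 14.6 and 14.1, and in 2CD7 10.9, 8.26 and 13.8 and then 9.95, 15.2 and 12.7. The treated controls were thus below the untreated ones, while treated 1CF10 stood above untreated 1CF10 and 2CD7 overlapped.

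Trim59 had 52.8, 57.3 and 50.2 CPM untreated and 51.7, 39.98 and 37.0 treated in WT, and 55.4, 61.3 and 51.7 and then 40.02, 43.7 and 47.8 in EV. Its 1CF10 values were 58.5, 53.6 and 58.4 and then 57.9, 52.4 and 62.0, and its 2CD7 values 50.2, 50.7 and 56.4 and then 69.2, 49.3 and 66.2 CPM. Treated and untreated Trim59 libraries were apart in EV and overlapped in WT and both clones. Neither Trim3 nor Trim59 was called within any line. Trim3 lost its call in 11 of 31 alternatives, with adjusted p from 0.0154 to 0.133, and Trim59 in 23 of 31, with adjusted p from 0.00987 to 0.145. Trim3 was lost with DESeq2, with no filter, without untreated WT library 1, EV library 2, 1CF10 library 2 or 2CD7 libraries 1 or 2, and without treated WT library 3, EV libraries 2 or 3 or 2CD7 library 2. Trim59 was lost with RLE factors, DESeq2, no filter or a minimum count of 30, and kept its call on leaving out a library only for untreated EV library 3 and treated WT library 1, EV library 3, 1CF10 library 2 and 2CD7 library 2.

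EV and WT did not differ in response for any member by edgeR, DESeq2 or limma-voom, beside 0.0256% of all tested genes higher and 0.0171% lower with edgeR. At an unadjusted p below 0.05 each of these tools listed 2 members, Trim26 and Trim44, and edgeR called Trim44 with no filter or with the compared groups only. With edgeR 6.88% of all tested genes were below that p, near the members' share. The log2 difference of EV minus WT was -0.41 ± 0.18 for Trim26 (edgeR adjusted p = 0.632) and -0.77 ± 0.22 for Trim44 (edgeR adjusted p = 0.227).

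**Figure D3:**
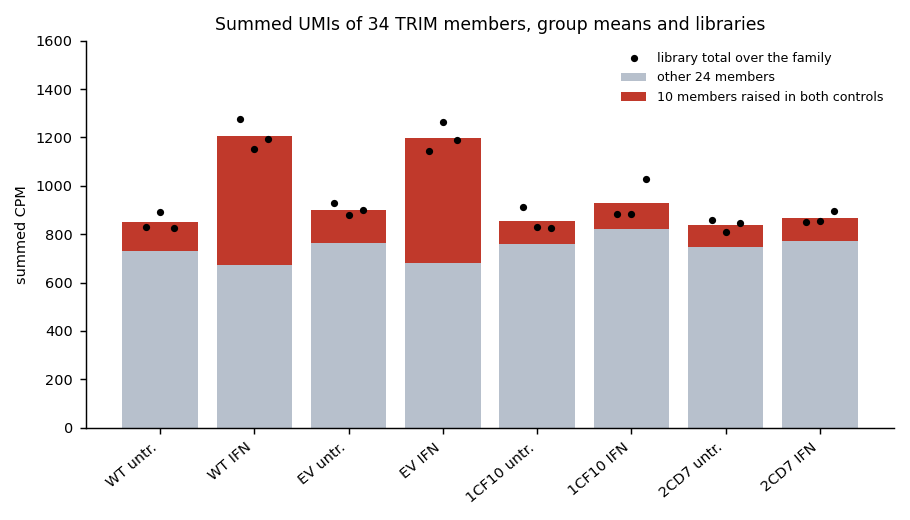
Summed CPM of the 34 members (vertical axis from 0) as the mean of 3 libraries for the 10 raised members (red) and the other 24 (gray), with points for the library totals. Totals average 1208 and 1199 CPM in treated WT and EV and 837 to 931 CPM in the other groups.

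Added together, the 34 members gave 849 ± 37.4 CPM (SD, n = 3) in untreated WT and 1208 ± 62.4 after IFN beta, and 902 ± 24.8 and 1199 ± 61.3 CPM in EV. The same sums were 856 ± 49.97 and 931 ± 82.7 CPM in 1CF10, and 837 ± 26.2 and 867 ± 26.1 CPM in 2CD7. Treated 1CF10 library 3, which stood apart, held 1026 CPM, and the other treated 1CF10 libraries held 882 and 885. The 10 raised members held 14.0% of the family's UMIs in untreated WT and 44.1% in treated WT, and 15.5% and 43.1% in EV. In the clones they held 10.8% to 11.7% with or without IFN beta. These shares describe the genes chosen on this contrast.

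Untreated clones were compared with untreated controls to ask whether the family differs without added interferon. Of the 32 members 4 were lower (Trim12c, Trim30a, Trim56 and Trim28) and 1 was higher (Trim16), beside 4.8% of all tested genes lower and 2.28% higher. Trim12c and Trim30a passed the filter only through the treated controls, so they entered this test because they were high there. Trim12c had 24 UMIs over the 6 untreated control libraries and none over the 6 untreated clone libraries, at least 8.83-fold lower in the clones against the floor, with a lower counting limit of 6.64 (edgeR adjusted p = 0.000395). Its control counts were 2, 10 and 2 in WT and 1, 2 and 7 in EV. All 6 controls held at least 1 UMI of it, and it was the member called lower in both clones against both controls. Without untreated WT library 2 the adjusted p against WT was 0.0599 in 1CF10 and 0.193 in 2CD7, the highest of their alternatives (lowest 0.000246 and 0.00197). Without untreated EV library 3 it was 0.189 and 0.219 against EV, again the highest (lowest 0.00683 and 0.00950). The call was also lost against EV without any library of either clone, and against WT without any library of 2CD7.

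Trim30a had 16 UMIs in untreated controls and 1 in untreated clones, a ratio of 17.7 with a counting interval of 2.74 to 740 (edgeR adjusted p = 0.0147). Untreated WT library 2 and EV library 3 held 12 of the 16, and without them in turn the adjusted p was 0.227 and 0.0728 (all alternatives 0.00420 to 0.227) and the ratio 15.3 and 10.6. Trim34a had 13 UMIs in controls and 1 in clones (ratio 14.3, 2.15 to 610, edgeR adjusted p = 0.0539). It did not pass the test, and WT libraries 1 and 2 held 10 of the 13.

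Trim56 stood at 34.2, 38.9 and 38.1 CPM in untreated 1CF10 and 40.4, 30.3 and 41.4 in untreated 2CD7. The lowest untreated control library, in WT, had 46.1 CPM. The log2 difference of clones from controls was -0.68 ± 0.11 (edgeR adjusted p = 7.97e-05), and it was called in all 19 alternatives. Trim12c and Trim56 were the members whose untreated clones lay below all untreated controls, beside 0.744% of all tested genes, and none lay above them, beside 0.615%. Of these, Trim12c was tested only because it was high in the treated controls. Trim56 was called against EV in both clones, at -0.88 ± 0.15 in 1CF10 and -0.85 ± 0.16 in 2CD7 (edgeR adjusted p = 0.000102 and 0.000213). Against WT it was -0.51 ± 0.16 in 1CF10 (edgeR adjusted p = 0.0237) and -0.48 ± 0.16 in 2CD7 (edgeR adjusted p = 0.101). Without untreated WT library 2, 1CF10 library 1 or 1CF10 library 3, the adjusted p of 1CF10 against WT was 0.141, 0.0968 or 0.0650 (all alternatives 0.00248 to 0.141).

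**Figure D4:**
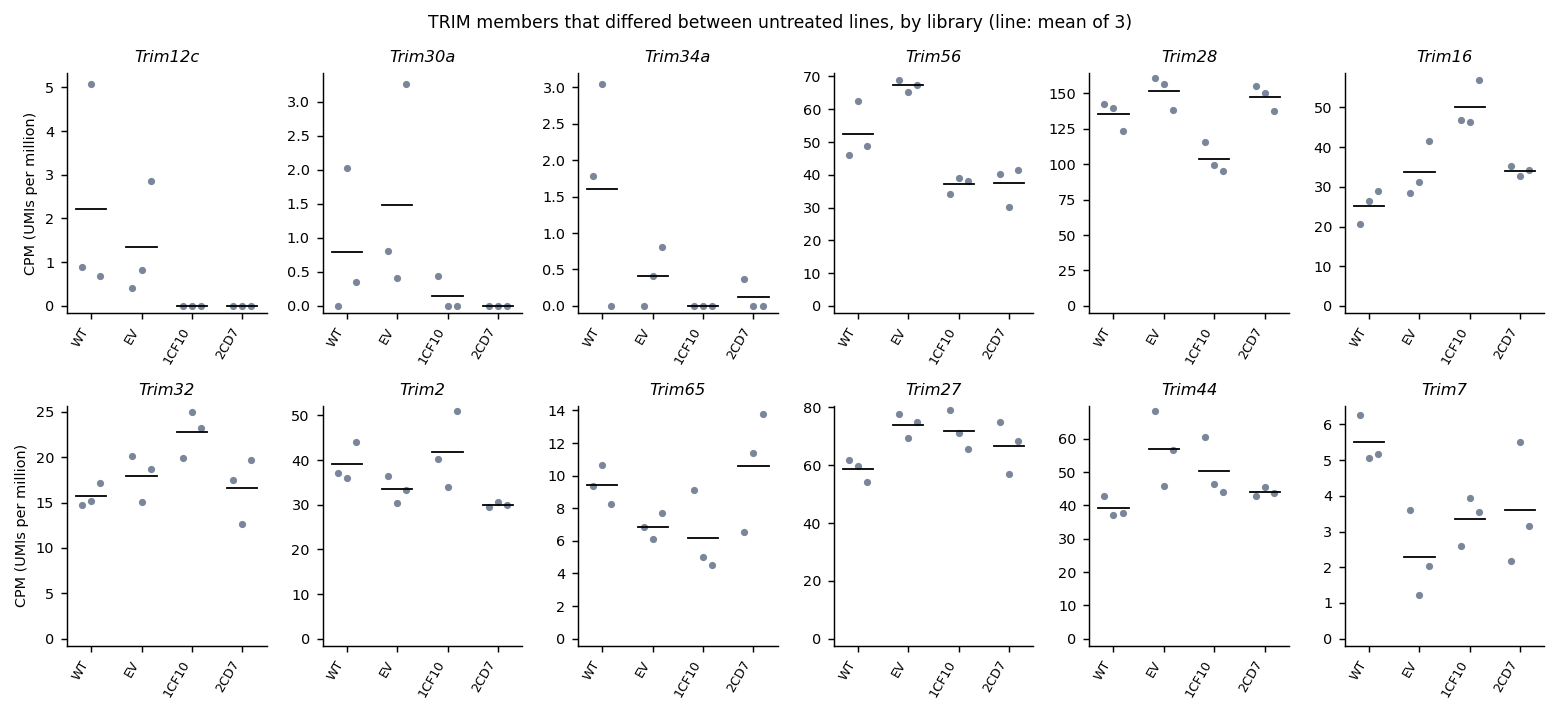
CPM (vertical axes, linear) in 3 untreated libraries of each line for the 12 members called in any comparison of untreated lines, with the mean as a line. Trim12c is at 0 in all 6 clone libraries, Trim56 is lower in both clones, and Trim28 and Trim16 stand apart in 1CF10.

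Trim28 was lower in untreated 1CF10 than in each of the other lines. Its untreated libraries had 116, 99.7 and 94.9 CPM in 1CF10, against 156, 150.3 and 137 in 2CD7, 143, 139.9 and 123 in WT and 161, 157 and 138 in EV. The log2 difference of 1CF10 was -0.59 ± 0.09 from EV and -0.42 ± 0.10 from WT (edgeR adjusted p = 4.21e-06 and 0.000887), and 2CD7 was 0.55 ± 0.09 above 1CF10 (edgeR adjusted p = 1.36e-05). Pooled over clones it was -0.23 ± 0.07 (edgeR adjusted p = 0.0197), a call lost in 8 of 19 alternatives (adjusted p 0.0112 to 0.0884): with DESeq2 and without WT libraries 1 or 2, EV libraries 1 or 2, 1CF10 libraries 2 or 3 or 2CD7 library 3. Zbtb45, which shares 6137 bases with Trim28 on the opposite strand, moved with it: in 1CF10 it differed by -0.98 ± 0.20 from EV (edgeR adjusted p = 0.000368) and -0.83 ± 0.21 from WT (edgeR adjusted p = 0.00254). The sources used here do not say whether counting used strand, and the part of Zbtb45 reads in the Trim28 count was not tested.

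Trim16, a RING-less member that takes part in autophagy of damaged membranes, was highest in 1CF10, at 46.8, 46.4 and 56.8 CPM untreated. Untreated 2CD7 had 35.3, 32.6 and 34.3 CPM, EV 28.5, 31.2 and 41.5 and WT 20.6, 26.4 and 28.9. The log2 difference of 1CF10 was 0.95 ± 0.15 from WT (edgeR adjusted p = 1.01e-06) and 0.55 ± 0.14 from EV (edgeR adjusted p = 0.00458), and 2CD7 was -0.53 ± 0.14 from 1CF10 (edgeR adjusted p = 0.00391). Without untreated 1CF10 library 3 the adjusted p was 0.0767 against EV and 0.0716 between clones, and without untreated EV library 1 it was 0.0730 against EV (all alternatives 0.000860 to 0.0767 and 0.00178 to 0.0716). Clones as a pair were 0.48 ± 0.11 above controls (edgeR adjusted p = 0.00129), called in all 19 alternatives. Untreated 2CD7 overlapped with EV.

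In comparisons of single lines the remaining calls were few. The called shares of all tested genes were 3.6% higher and 6.76% lower for 1CF10 against EV, 4% and 4.86% for 2CD7 against EV, 8.19% and 11% for 1CF10 against WT, and 1.45% and 2.06% for 2CD7 against WT. The members called were 1 higher and 4 lower, 0 and 3, 2 and 4, and 0 and 1 in that order. Among the lower ones, Trim12c, Trim30a and Trim34a passed the filter only through the treated controls. Trim30a was called lower than EV in both clones (edgeR adjusted p = 0.0466 in 1CF10 and 0.0143 in 2CD7), with 11 UMIs in EV and 1 and 0 in the clones. Without EV library 3 these were 0.459 and 0.192, the highest of the alternatives (lowest 0.0189 and 0.00408), and the calls were also lost without 1CF10 libraries 2 or 3 and without any library of 2CD7. The call of Trim30a in 1CF10 was lost with DESeq2 (adjusted p = 0.0697), limma-voom (0.0566), a minimum count of 30 (0.0510) and the replicate block (0.0522) too. Trim32, an NHL-repeat ligase of muscle, was 0.50 ± 0.18 higher in 1CF10 than in WT (edgeR adjusted p = 0.0445), a call lost in 8 of 13 alternatives, among them without any of the WT libraries or 1CF10 libraries 2 and 3 (adjusted p 0.0310 to 0.172). Trim34a was called lower in 1CF10, at 0 UMIs, than in WT, at 10. With limma-voom its adjusted p was 0.0593 and without WT library 2 it was 0.0685 (all alternatives 0.000719 to 0.0685).

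Between the clones, 2 members were higher in 2CD7 (Trim28 and Trim65) and 2 lower (Trim16 and Trim2), beside 7.71% and 5.69% of all tested genes. Trim65, which ubiquitinates the RNA sensor MDA5, differed by 0.83 ± 0.28 (edgeR adjusted p = 0.0339), and Trim2, a neuronal NHL-repeat ligase, by -0.46 ± 0.15 (edgeR adjusted p = 0.0266). Trim65 was lost in 6 of 12 alternatives (adjusted p 0.00491 to 0.261) and Trim2 in 5 of 13 (0.00821 to 0.354), the first without library 2 or 3 of either clone and the second without 1CF10 library 3 or any 2CD7 library, among others.

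The controls also differed from each other before treatment. EV was higher than WT in Trim44 by 0.54 ± 0.16 and in Trim27 by 0.34 ± 0.11 (edgeR adjusted p = 0.0167 and 0.0261), and lower in Trim7, a glycogenin-binding member, by -1.24 ± 0.44 (edgeR adjusted p = 0.0467). Among all tested genes 6.96% were higher and 7.14% lower. Trim44 lost its call without WT library 2 or 3 or EV library 1 (adjusted p 0.00146 to 0.147 over 13 alternatives), Trim27 in 4 of 13 alternatives (0.0212 to 0.150; without WT library 3 or EV libraries 1 or 3 and with DESeq2) and Trim7 in 7 of 12 (0.0260 to 0.209; among them without any WT library or EV libraries 2 or 3).

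Other genes of the pathway were read from lists of names, chosen with earlier results of these data known. Among all tested genes 5.01% rose in WT and 3.99% in EV. Of 3 tested genes of TRIM proteins with other symbols 1 was raised: Pml, the organizer of nuclear bodies, rose by 1.79 ± 0.12 in WT and 1.77 ± 0.12 in EV on the log2 scale (edgeR adjusted p = 1.32e-18 and 2.31e-18), while Mid1 and Mid2, which bind microtubules, were not called. Of the list of genes acting from the receptor to its transcription complex, which is not reported here in full, Stat2 and Irf9 rose in both controls, Stat2 by 3.19 ± 0.15 and 3.04 ± 0.16 and Irf9 by 2.34 ± 0.19 and 2.03 ± 0.18 (edgeR, adjusted p below the threshold in each). Both were also lower in untreated clones, with log2 differences of -0.88 ± 0.18 and -2.46 ± 0.24 (edgeR adjusted p = 0.000375 and 2.91e-11).

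Of 20 tested genes of nucleic acid sensing, on which several TRIM ligases act, 9 rose in WT and 10 in EV, with medians of 0.54 and 0.65 against -0.02 and -0.01 over all tested genes. The RNA sensor gene Tlr3 had log2 fold changes of 4.40 ± 0.32 and 5.27 ± 0.42, and Ifih1, which encodes MDA5, 3.72 ± 0.17 and 2.84 ± 0.17. Of 28 ubiquitin ligases outside the family 8 rose in WT and 7 in EV, with medians of 0.01 and 0.10. Dtx3l (2.85 ± 0.13 and 3.33 ± 0.14) and Herc6, a ligase for the ubiquitin-like ISG15 (3.24 ± 0.22 and 2.66 ± 0.22), were among them. Of 15 conjugation enzymes and modifiers 4 rose in each control: Isg15, its activating and conjugating enzymes Uba7 and Ube2l6, and its protease Usp18. These counts stand beside 5.01% of all tested genes that rose in WT and 3.99% in EV. The lists were chosen with earlier results known, so the counts describe only the genes named. No gene of these lists was called in either clone after IFN beta.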

How the data were processed

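Per the labels' protocols, the 24 ID8 libraries were made from poly(A)-primed RNA; the primer carried a UMI (10 bp) and a library index (8 bp). The authors deposited whole-number UMI counts per Ensembl gene without normalization. Tools named in the submitters' processing notes are cutadapt 3.0, limma 3.50.0, edgeR 3.36.0 and R (4.1.2, 3.6.2), with GRCm38 as a build. No aligner is named in the sources used here.

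Genes passing filterByExpr (minimum count 10, minimum total 15) were fitted over all 24 libraries on 8 group means with edgeR 4.0.16 in R 4.3.3 (TMM scaling, robust quasi-likelihood F test). Adjusted p-values are Benjamini-Hochberg over 11698 tested genes, called below 0.05. The SE is the log2 fold change divided by the root of F. With 1 to 3 UMIs in a group, or none, a ratio of UMIs with an exact 95% counting interval, or a bound against 3 UMIs over the group, replaces the fitted value; these cover counting error only. The script was tested on simulated data.

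Members, gene lists, comparisons and the rule for named genes (members called in a main comparison, with values by library; the others by fold change or name) were chosen with earlier results of these data known. Alternatives were RLE factors, DESeq2 1.42.0, limma-voom 3.58.1, no filter, a minimum count of 30, a replicate block, compared groups only and leaving out each library. The main fit did not pair the samples by replicate number. Gene positions came from GENCODE M21 and promoters from RefSeq (GRCm38.p6). The list of genes from the receptor to its transcription complex is not reported here in full.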

Additional observations from a re-analysis of the deposited data

Results flagged for a closer look

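The response to IFN beta differed between clones and controls for 7 members by a test of the difference itself (clones' mean minus controls' mean, log2 scale, edgeR adjusted p below 0.05). It was lower for Trim21 (-3.38), Trim12a (-3.27), Trim25 (-2.47), Trim56 (-1.41) and Trim26 (-1.19), and these 5 were called in all 31 alternatives. It was higher for Trim3 (0.74) and Trim59 (0.40), whose calls were lost in 11 and 23 of 31 alternatives. Trim21 and Trim12a passed the filter only through the treated controls, so the filter favoured the sign of their difference. The cause of these differences was not tested, and the knockout cannot be told apart from other differences between clones.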

How the results depend on the processing

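Replicate numbers were tested as a pairing: libraries of the same number had a mean correlation of deviations of 0.00928 (-0.0775 to 0.0830), others -0.00464. By mean correlation with the other groups, 13 of 24 libraries were closest to their own number out of 3. With the replicate block 10 members were raised in WT and 10 in EV, and 3 in place of 4 were lower in 1CF10 than EV, Trim30a being lost (adjusted p 0.0522); the block changed no other call of a member count. The 10 raised members numbered 10 to 11 in WT and 10 in EV when a library was left out, and 8 to 11 and 8 to 10 under other settings, where fewer members were tested at a minimum count of 30. Members with a higher response in the clones, 2, numbered 1 with RLE, 0 with DESeq2, 0 with no filter, 1 at a minimum count of 30 and 0 to 2 with a library left out. Those with a lower response, 5, numbered 9 with limma-voom, 6 with DESeq2 and 5 to 6 with a library left out. In EV against WT responses 1 (Trim44) was lower with no filter and with the compared groups only. In untreated lines the lower members, 4 in clones against controls, were 2 to 5 under other settings and 2 to 5 with a library left out. With the compared groups only, where fewer were tested, they were 2, and with DESeq2 Trim28 was lost. For 1CF10 against EV the lower members were 2 with the compared groups only, 2 to 4 over other settings and 2 to 4 with a library left out. Trim30a was lost there with DESeq2, limma-voom, a minimum count of 30 and the replicate block. Higher members were 0 to 1 with a library left out. For 2CD7 against EV a library left out gave 1 to 4 lower and 0 to 1 higher, and other settings gave 2 to 3 lower. For 1CF10 against WT, higher members were 1 with DESeq2, limma-voom or no filter and 1 to 2 with a library left out. Lower ones were 1 to 4 with a library left out and 3 to 4 under other settings. For 2CD7 against WT, lower members were 0 with DESeq2, 2 with no filter and 0 to 2 with a library left out. For EV against WT, higher members were 1 with DESeq2, up to 3 under other settings and 0 to 3 with a library left out. Lower ones were 0 with DESeq2, no filter or a minimum count of 30 and 0 to 1 with a library left out. Between the clones, higher members were 1 with DESeq2, no filter or a minimum count of 30 and 1 to 2 with a library left out, and lower ones 1 with DESeq2 and 0 to 2 with a library left out. No result reversed. The cause of these changes was not tested beyond the number of members tested. With groups left at fewer libraries the spread is pooled over groups.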

Other observations

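Members outside the comparisons were sparse. Trim13, a membrane-anchored ligase, had 117 UMIs over 24 libraries and was not tested. Its group sums were 15 UMIs in untreated WT, 20 in untreated EV, 22 in untreated 1CF10 and 6 in untreated 2CD7. Trim62, below the limit for members, had 36 UMIs, with 7, 4, 2 and 0 in the untreated groups of WT, EV, 1CF10 and 2CD7 and 5, 4, 6 and 8 in the treated ones. Trim36 had 37 UMIs in all, and Trim40 had 27. Trim46 had 18 UMIs, Trim17 had 5, and Trim10, Trim66 and Trim69 had 1 each.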
